A study of Homo sapiens with 9 samples.

Results

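The genes examined here are 42 genes of the NF-kB pathway and of the interleukin, chemokine and tumor necrosis factor families, among the 60603 genes of the count table. They were selected by gene symbol, with earlier results from these libraries already known, and whether a member counts as expressed was defined from its mean level in these same libraries. The cells were TC32, a cell line of Ewing sarcoma with the EWS::FLI1 fusion, and poly(A) RNA of 3 groups was sequenced. The siEF group received an siRNA that spans the breakpoint of the fusion, the siNEG group received a nonspecific siRNA, and the Media group is labelled with the medium alone. Each group holds 3 libraries labelled as biological replicates. All 9 libraries share the 30 h time point, a medium with 10% FBS and L-glutamine, a genotype label of wild type and batch label 1. All cells of the study are 1 cell line, and the labels name a small RNA library kit beside poly(A) RNA. No label says whether the replicates came from separate platings, so p-values measure the spread between these libraries, which may be in part technical.

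NF-kB is a family of dimeric transcription factors that is held in the cytoplasm by inhibitor proteins until receptors for interleukin-1, tumor necrosis factor or microbial products trigger the destruction of the inhibitor. The freed dimers switch on genes for cytokines, chemokines and adhesion molecules, and also genes for their own inhibitors, which end the response. Chemokines attract leukocytes, while interleukin-6 type and interleukin-4 type receptors signal through JAK kinases and STAT factors.

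The libraries held 20727706 to 33134581 expected counts, and the shallowest was siEF replicate 2. Expression is given in CPM, the counts of a gene per 1000000 counts of the library, on library sizes scaled by the TMM method. Summed over 6 markers of Ewing sarcoma, all of them at 1 CPM or more in each group, the level was 282 to 287 CPM in siEF, 494 to 518 CPM in siNEG and 598 to 651 CPM in Media. The markers did not move alike. CD99, which had the most counts of them in siEF, had 3829 to 5482.5 counts there and 5023 to 5314 in siNEG, before scaling for depth. These ranges overlapped. The counts of NKX2-2, NR0B1, STEAP1, LIPI and FLI1 were lower in every siEF library than in every control library. FLI1, whose gene-level count includes the reads of the fusion, was at 37.8 CPM in siEF, 48.4 CPM in siNEG and 57.9 CPM in Media, a log2 fold change of -0.35 for siEF against siNEG. NR0B1, a gene induced by the fusion, had a log2 fold change of -2.97 in the same comparison. Of 6 leukocyte markers, 0 reached 1 CPM in any group, and their sum was 1.44 to 1.91 CPM in siEF, 0.577 to 1.14 CPM in siNEG and 0.768 to 1.27 CPM in Media. PTPRC and CD3E were at 0 in every siEF library. Of 3 endothelial markers, 1 reached 1 CPM, and their sum was 1.81 to 2.69 CPM in siEF, 3.43 to 4.77 CPM in siNEG and 4.08 to 5.06 CPM in Media. PECAM1 made up most of that sum, with means of 1.60, 3.69 and 4.41 CPM in siEF, siNEG and Media, while CDH5 went the other way, with 0.663, 0.210 and 0.0972 CPM, and was called higher in siEF against Media (adjusted p = 0.0028, edgeR's quasi-likelihood test). CDH5 had 14 to 19 counts in siEF and 1 to 5 in Media. It passed the filter on low counts, described below, only through its siEF libraries, so its call gives no support for a direction. VWF was at 0.0626 CPM or less in every group. The part of such cells in the results was not tested beyond these sums. In bulk RNA, fewer cells that express a gene and less RNA per cell cannot be told apart.

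A member was taken as expressed at a mean of at least 1 CPM in a group, and 28 of the 42 members were expressed in at least 1 group. All 28 were expressed in siEF, 23 in siNEG and 21 in Media, and 20 were expressed in all 3 groups. CXCL1, BIRC3, ICAM1 and TRAF1 reached this level in siEF alone, IL1A, IL1B and TNFSF4 in siEF and siNEG, and CCL2 in siEF and Media. The level chose the expressed members, so these counts are a description. In siEF, the lowest mean above the limit was that of BIRC3, 2.14 CPM, and the highest mean below it was that of IL4R, 0.983 CPM. In siNEG the neighbors of the limit were TNFSF4 at 1.23 CPM and CCL2 at 0.891 CPM, and in Media they were CCL2 at 1.12 CPM and ICAM1 at 0.672 CPM. With a limit of 2 CPM, 28 members were expressed in siEF, 19 in siNEG and 19 in Media. The 14 members below it were IL6, IL11, LIF, IL4R, IL13RA2, CXCL2, CXCL3, CXCL5, CXCL6, CCL5, CCL20, TNF, VCAM1 and PTGS2. IL6, the founding cytokine of its family, and CCL5, a chemokine for T cells, had 0 counts in all 9 libraries, where 3 counts correspond to 0.0905 to 0.145 CPM.

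**Figure D1:**
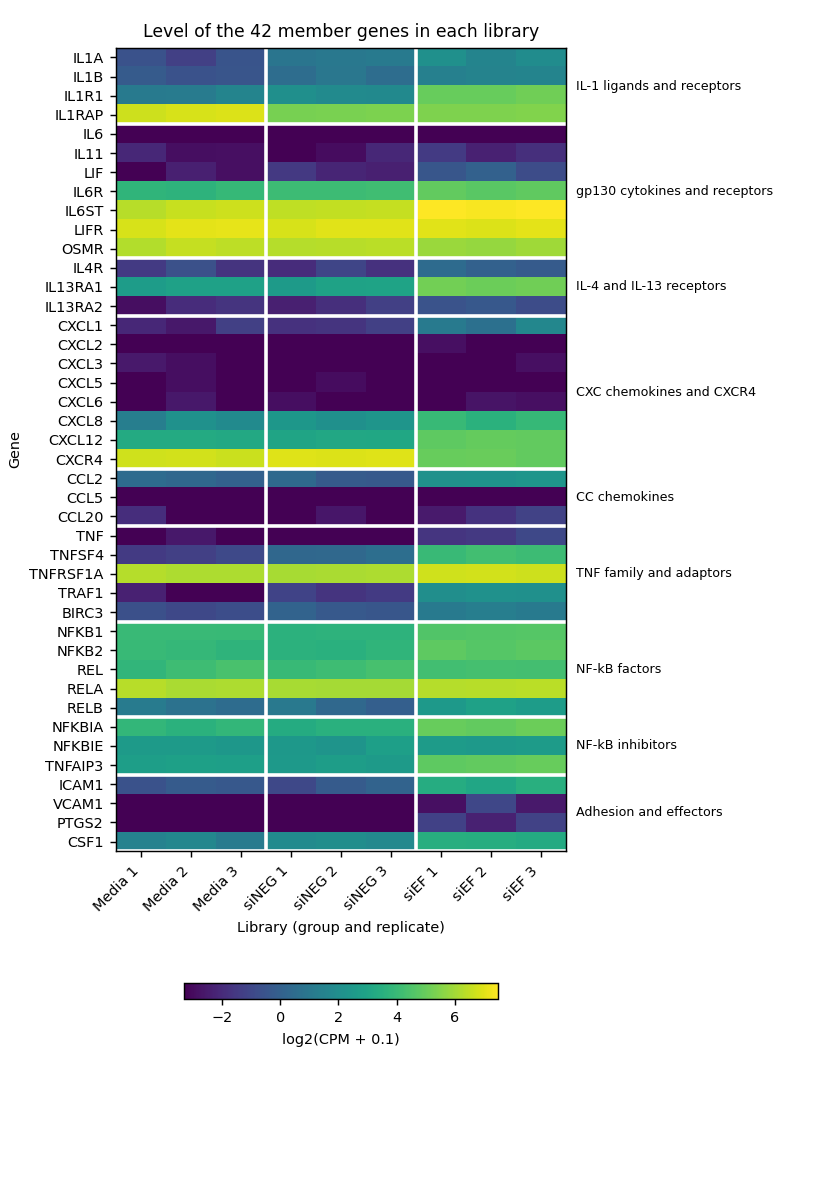
Level of each of the 42 members (rows, grouped by role) in each of the 9 libraries (columns, grouped by Media, siNEG and siEF), as log2(CPM + 0.1) on the color scale. The darkest rows are members with few or no counts, such as IL6 and CCL5 with 0 counts in all 9 libraries, and the row of CXCR4 is darker in the 3 siEF libraries than in the other libraries.

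The comparison of siEF with siNEG asks which members differed when the fusion was silenced. The comparison of siEF with Media sets them against cells without siRNA, so it also includes what went with receiving an siRNA. Both comparisons share the siEF libraries, and each shares a control group with the comparison of siNEG with Media. A gene was called higher or lower where the adjusted p was under 0.01 and the log2 fold change was beyond 1 in size, by edgeR's quasi-likelihood test with Benjamini-Hochberg adjustment over the 16093 genes that passed the filter on low counts. Of the 42 members, 31 passed that filter. IL4R, IL13RA2, LIF, CXCL1 and TRAF1 passed it only through their siEF libraries. Their own calls, and the counts and medians that follow, describe the members tested and give no support for a direction. Against siNEG, 17 of the 31 tested members were higher in siEF, 1 was lower and 13 were not called, while 17.1% of all tested genes were called higher and 11.7% lower. The median log2 fold change was 1.52 over the members and 0.0461 over all tested genes. Against Media, 20 members were higher, 2 were lower and 9 were not called, beside 17.4% and 12.5% of all tested genes, and the median log2 fold change was 1.88 over the members and 0.0441 over all tested genes. Between siNEG and Media, 3 members were higher in siNEG, 1 was lower and 27 were not called, beside 0.162% and 0.267% of all tested genes. The median in that comparison was 0.008 over the members and -0.0012 over all tested genes. Nothing is read from these shares, since the members were named with such results known.

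**Figure D2:**
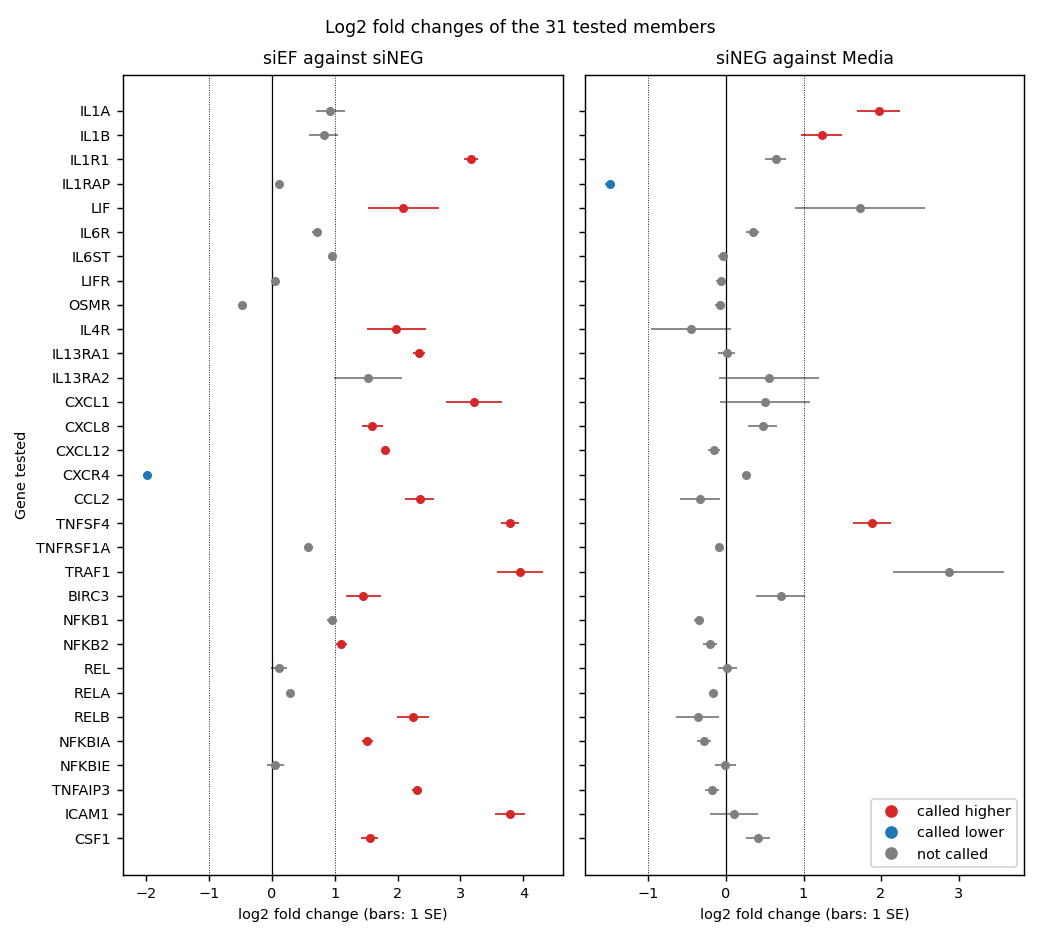
Log2 fold change of each of the 31 tested members (rows) for siEF against siNEG on the left and siNEG against Media on the right, with bars of 1 SE, the cut-offs as dotted lines, and red for called higher, blue for called lower and gray for not called. On the left, 17 members are red and CXCR4 is blue, and on the right IL1A, IL1B and TNFSF4 are red and IL1RAP is blue.

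The DNA-binding subunits of NF-kB differed in how far they moved. RELB, the partner of p52 in the noncanonical pathway, had 5.49, 7.25 and 6.20 CPM in siEF replicates 1, 2 and 3. It had 1.96, 1.15 and 0.866 CPM in siNEG and 2.19, 1.59 and 1.33 CPM in Media. Every siEF library lay well above the 6 control libraries, whose ranges overlapped. RELB rose by a log2 fold change of 2.25 against siNEG (SE 0.26, adjusted p = 6.75e-07, quasi-likelihood test) and of 1.88 against Media. NFKB2, which encodes the precursor of p52, was at 27.9, 24.7 and 27.6 CPM in siEF, 12.4, 11.6 and 13.4 CPM in siNEG and 15.4, 14.6 and 13.0 CPM in Media. Its siEF libraries were all higher than the controls. NFKB2 was called against siNEG, where it rose by 1.10 on the log2 scale (SE 0.08, adjusted p = 3.97e-09, quasi-likelihood test), and not against Media, where the log2 fold change was 0.90. It was the called member closest to the cut-off against siNEG, and a test against the cut-off itself no longer called it (adjusted p = 0.155, edgeR's glmTreat).

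NFKB1, which encodes the precursor of p50, fell just outside the cut-off. Its levels were 23.7, 24.2 and 24.9 CPM in siEF, 12.3, 12.5 and 12.8 CPM in siNEG and 16.0, 16.0 and 15.8 CPM in Media. The 3 groups did not overlap, with siEF highest and siNEG lowest. The log2 fold change was 0.95 against siNEG (SE 0.07, adjusted p = 1.31e-09, quasi-likelihood test), 0.61 against Media and -0.35 for siNEG against Media (adjusted p = 0.00197, same test). RELA, the activating subunit of the classical dimer, was abundant in all groups, with means of 81.2 ± 2.13 CPM in siEF, 66.5 ± 0.732 CPM in siNEG and 74.6 ± 6.11 CPM in Media (SD, n = 3 each). Its log2 fold changes were 0.29 against siNEG and 0.12 against Media, and the siEF and Media libraries overlapped. REL, the c-Rel subunit, had overlapping libraries in all 3 comparisons and log2 fold changes of 0.12, 0.13 and 0.02. Its counts were fractional, because reads were divided with other genes, and the sign of its log2 fold change was not stable when single libraries were left out.

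Among the inhibitors, NFKBIA and TNFAIP3 rose and NFKBIE did not pass the test. NFKBIA encodes the inhibitor IκBα, which retains the classical dimer in the cytoplasm. It was at 32.1, 30.1 and 33.1 CPM in siEF, 10.1, 11.5 and 11.7 CPM in siNEG and 14.1, 12.0 and 14.3 CPM in Media. The siEF level was the highest, and all siNEG libraries lay below all Media libraries. The log2 fold change was 1.52 against siNEG (SE 0.08, adjusted p = 6.54e-11, quasi-likelihood test) and 1.24 against Media. TNFAIP3, which encodes the ubiquitin-editing enzyme A20, was at 28.4, 29.4 and 31.7 CPM in siEF, 5.78, 6.37 and 5.93 CPM in siNEG and 6.63, 7.08 and 6.84 CPM in Media. Its siEF libraries were far above both controls. The log2 fold change was 2.31 against siNEG (SE 0.08, adjusted p = 2.41e-13, quasi-likelihood test) and 2.12 against Media. An antisense RNA gene, WAKMAR2, overlaps exons of TNFAIP3, and the strand setting of the counting is not given in the sources used here. NFKBIE, which encodes IκBε, had means of 5.90 ± 0.199 CPM in siEF, 5.69 ± 1.01 CPM in siNEG and 5.72 ± 0.384 CPM in Media (SD, n = 3 each), with overlapping libraries throughout.

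NFKBIA and TNFAIP3 are shown by sequence because their upstream regions hold matches to the consensus of the NF-kB binding site, the kB consensus. RefSeq promoters of build GRCh38.p14, from 250 bases before to 50 bases after the annotated start, were found for 35 of the 42 members and searched on both strands. The stretch of 120 bases from 150 to 31 bases before the start is given 5′ to 3′ on the strand of the gene, with the match in capitals. That of NFKBIA lies at chr14:35404780-35404899 on the minus strand, and that of TNFAIP3 at chr6:137867109-137867228 on the plus strand.
NFKBIA: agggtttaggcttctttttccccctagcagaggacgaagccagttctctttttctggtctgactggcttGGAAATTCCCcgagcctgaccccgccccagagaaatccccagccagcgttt
TNFAIP3: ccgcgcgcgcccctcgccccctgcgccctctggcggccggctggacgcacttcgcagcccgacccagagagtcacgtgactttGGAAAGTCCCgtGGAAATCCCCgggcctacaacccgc
The NFKBIA stretch holds 1 match, 81 bases before the start, and the TNFAIP3 stretch holds 2, the first 67 bases before the start. Over all members with a promoter, 14 of 35 (40%) held the kB consensus, against 1562 of 27305 RefSeq promoters (5.72%), and among the members called higher against siNEG it was 5 of 13. Members were named with knowledge of the pathway, so the excess over other promoters is a property of the list. TGANTCA, the form bound by AP-1 factors, was in 5 of 35 member promoters and 7.76% of all promoters. GGAAGGAA, a pair of the repeats to which the fusion binds, was in 5 of 35 member promoters (CXCL1, CXCL2, IL11, NFKB2 and OSMR) and 3.58% of all promoters. No match of 1 motif overlapped a match of another in a member. These matches describe the letters of the window only.

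The interleukin-1 group moved in different ways against the 2 controls. IL1R1, the signaling receptor for interleukin-1, was at 31.4, 31.5 and 35.9 CPM in siEF, 4.04, 3.54 and 3.46 CPM in siNEG and 2.09, 2.19 and 2.83 CPM in Media. The siEF libraries stood far above all others, and the siNEG libraries all lay above the Media libraries. IL1R1 rose by a log2 fold change of 3.16 against siNEG (SE 0.11, adjusted p = 1.32e-13, quasi-likelihood test) and of 3.80 against Media, while siNEG against Media gave 0.64. IL1RAP, the accessory chain that pairs with this receptor, was at 42.9, 42.5 and 44.4 CPM in siEF and 38.5, 39.6 and 41.2 CPM in siNEG, but at 103, 114 and 121 CPM in Media. Both siRNA groups lay far below Media. IL1RAP fell by 1.38 on the log2 scale in siEF against Media and by 1.50 in siNEG against Media (adjusted p = 4.23e-12 and 5.42e-10, quasi-likelihood test). Against siNEG, its log2 fold change in siEF was 0.12 and was not called (adjusted p = 0.097, same test). The paper names IL1RAP among the EWS::FLI1 targets driven by GGAA microsatellites.

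The ligands IL1A and IL1B were lowest in Media, higher in siNEG and highest in siEF. IL1A, which encodes the membrane-associated interleukin-1α, was at 4.26, 2.84 and 3.77 CPM in siEF, 1.74, 1.92 and 2.08 CPM in siNEG and 0.555, 0.317 and 0.594 CPM in Media. IL1B, which encodes the secreted interleukin-1β, was at 2.56, 2.74 and 2.85 CPM in siEF, 1.36, 1.86 and 1.38 CPM in siNEG and 0.751, 0.571 and 0.629 CPM in Media. For both ligands the 3 groups did not overlap. In siNEG against Media, IL1A rose by 1.97 on the log2 scale (SE 0.28, adjusted p = 0.000124, quasi-likelihood test) and IL1B by 1.23 (SE 0.26, adjusted p = 0.00352). The call of IL1B between siNEG and Media was lost without siNEG replicate 2 (adjusted p = 0.0225), Media replicate 2 (0.0167) or Media replicate 3 (0.011). Against siNEG, neither ligand was called in siEF, with log2 fold changes of 0.93 for IL1A and 0.82 for IL1B (adjusted p = 0.0017 and 0.00436, quasi-likelihood test). Without siEF replicate 2, the lowest of its group, IL1A was called with 1.07. Against Media both were called in siEF, with log2 fold changes of 2.90 and 2.06.

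Among the cytokines of the interleukin-6 family, few reads were seen for the ligands while their receptors were abundant. LIF, leukemia inhibitory factor, had 18, 19 and 14 counts in siEF, 8, 4 and 3 counts in siNEG and 0, 3 and 1 counts in Media. Its siEF counts were above all others, and LIF passed the filter on low counts only through those libraries. LIF was at least 6.92-fold higher in siEF than in Media against a floor of 3 counts per library, and the log2 fold change against siNEG was 2.09 (SE 0.56, adjusted p = 0.00312, quasi-likelihood test). The latter call was lost without siEF replicate 1 or 2 or siNEG replicate 2 or 3 (adjusted p from 0.0118 to 0.0212). IL11, another ligand of the family, had at most 7 counts in any library and was not tested.

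IL6ST encodes gp130, the signaling chain that all receptors of the family share. It was at 179, 168 and 182 CPM in siEF, 89.5, 90.5 and 93.3 CPM in siNEG and 81.8, 95.8 and 102 CPM in Media. All siEF libraries were higher than all controls, although the log2 fold change of 0.95 against siNEG and 0.92 against Media stayed under the cut-off (adjusted p = 9.22e-10 and 1.45e-09, quasi-likelihood test). IL6R, the receptor chain that binds interleukin-6, was at 30.1, 26.4 and 29.0 CPM in siEF, 16.9, 17.1 and 18.2 CPM in siNEG and 13.4, 12.8 and 15.1 CPM in Media. The groups followed each other without overlap. IL6R was called against Media, with a log2 fold change of 1.06, and not against siNEG, where it was 0.72, and glmTreat made neither call (adjusted p = 0.309 against Media). LIFR, the LIF receptor, had means of 127 ± 6.01 CPM in siEF, 123 ± 7.66 CPM in siNEG and 129 ± 11.9 CPM in Media (SD, n = 3 each), with overlapping libraries. OSMR, the oncostatin M receptor, had lower levels in siEF, at 58.7 ± 2.92 CPM against 81.5 ± 3.30 CPM in siNEG and 85.7 ± 7.97 CPM in Media (SD, n = 3 each). Its log2 fold change against siNEG was -0.47 (adjusted p = 7.41e-06, quasi-likelihood test), under the cut-off, and its exons overlap those of RICTOR on the other strand.

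Of the receptor chains for interleukin-4 and interleukin-13, IL13RA1 had the most reads and the other chains few. IL13RA1, which joins IL4R in the receptor that responds to both ligands, was at 36.5, 33.6 and 35.4 CPM in siEF, 5.91, 7.43 and 7.57 CPM in siNEG and 6.30, 7.17 and 7.33 CPM in Media. The siEF libraries stood apart and the controls overlapped. Its log2 fold change was 2.34 against both controls (SE 0.09 for each, adjusted p = 1.03e-12 against siNEG and 1e-12 against Media, quasi-likelihood test). IL4R, the chain that binds interleukin-4, had 35, 19 and 22 counts in siEF, 5, 13 and 6 in siNEG and 8, 17 and 6 in Media. Its siEF counts were the highest, the closest being 19 in siEF replicate 2 and 17 in Media replicate 2. The log2 fold change was 1.98 against siNEG and 1.52 against Media (adjusted p = 0.0012 and 0.00629, quasi-likelihood test). IL13RA2, a chain that binds interleukin-13 and is often described as a decoy, had 16, 14 and 14 counts in siEF, 3, 6 and 10 in siNEG and 1, 5 and 6 in Media. It was called against Media, where it rose by 2.08 on the log2 scale (adjusted p = 0.00403), and not against siNEG, with 1.53 (adjusted p = 0.0178, quasi-likelihood test). Against siNEG, IL4R was no longer called without siEF replicate 1 (adjusted p = 0.0115). Against Media, IL4R was lost without siEF replicate 1 or 2 or Media replicate 1 or 3 (adjusted p from 0.015 to 0.0459). IL13RA2 was lost against Media without siEF replicate 1 or 2 or Media replicate 1 or 2 (adjusted p from 0.013 to 0.026). Both genes passed the filter on low counts only through their siEF libraries.

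The neutrophil-attracting CXC chemokines lie side by side on chromosome 4, and only a pair of them gave more than a few reads. CXCL8, interleukin-8, was at 15.5, 12.2 and 15.3 CPM in siEF, 5.18, 4.18 and 4.91 CPM in siNEG and 2.35, 4.41 and 3.49 CPM in Media. The siEF libraries were all higher, and siNEG and Media overlapped. CXCL8 rose by a log2 fold change of 1.60 against siNEG (SE 0.17, adjusted p = 1.93e-07, quasi-likelihood test) and of 2.07 against Media. CXCL1 had 57.98, 31 and 90 counts in siEF, 6, 7 and 10 in siNEG and 4, 2 and 9 in Media. All 3 siEF counts exceeded those of the controls, although they differed among themselves more than those of CXCL8. The log2 fold change of CXCL1 was 3.22 against siNEG (SE 0.44, adjusted p = 5.54e-06, quasi-likelihood test) and 3.73 against Media. It passed the filter on low counts only through its siEF libraries. In contrast, CXCL2, CXCL3, CXCL5 and CXCL6, which act on the same receptors, had at most 2 counts in any library, and CXCL2 had 1.02 counts in all. The counts of CXCL1 and CXCL2 were fractional only in siEF replicate 1, at 57.98 and 1.02, and were whole numbers in the other libraries. Whole numbers cannot show whether reads shared by these near-identical genes were all given to 1 of them, and this was not tested.

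The promoters of the cluster are shown because the members with hardly any reads carry the same kB match as CXCL1. The stretches are those of RefSeq (GRCh38.p14) from 150 to 31 bases before the start, 5′ to 3′ on the strand of the gene, and the capitals mark the kB consensus. They lie at chr4:73869243-73869362 for CXCL1 and chr4:73836528-73836647 for CXCL6, both on the plus strand, and at chr4:74099226-74099345 for CXCL2, chr4:74038720-74038839 for CXCL3 and chr4:73998708-73998827 for CXCL5, all on the minus strand.
CXCL1: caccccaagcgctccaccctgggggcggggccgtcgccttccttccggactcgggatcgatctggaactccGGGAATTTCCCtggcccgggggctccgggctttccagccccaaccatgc
CXCL2: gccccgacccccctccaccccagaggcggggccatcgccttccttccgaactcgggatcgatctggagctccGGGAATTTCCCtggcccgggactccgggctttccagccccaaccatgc
CXCL3: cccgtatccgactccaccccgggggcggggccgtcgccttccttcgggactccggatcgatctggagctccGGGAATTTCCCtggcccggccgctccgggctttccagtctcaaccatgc
CXCL5: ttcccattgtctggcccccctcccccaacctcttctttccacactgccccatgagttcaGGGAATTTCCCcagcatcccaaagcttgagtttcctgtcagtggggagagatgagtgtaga
CXCL6: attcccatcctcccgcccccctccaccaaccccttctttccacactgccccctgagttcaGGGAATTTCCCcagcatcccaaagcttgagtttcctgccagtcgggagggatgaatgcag
All 5 stretches hold the same 11 letters, GGGAATTTCCC, which match on both strands, and the match begins 79 bases before the start in CXCL1, 78 in CXCL2, 79 in CXCL3, 91 in CXCL5 and 90 in CXCL6. No kB match was found in the 300 bases of CXCL8, which held TGANTCA 137 bases before its start. The search allowed no departure from the consensus, so a site that departs from it would not be found.

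CXCL12 and its receptor CXCR4 moved in opposite directions. CXCL12, the ligand that guides stem cells and lymphocytes, was at 28.5, 30.8 and 30.1 CPM in siEF, 7.93, 8.87 and 8.72 CPM in siNEG and 9.63, 9.61 and 9.15 CPM in Media. CXCR4 was at 31.4, 32.3 and 30.0 CPM in siEF, 125, 122 and 124 CPM in siNEG and 104, 109 and 98.7 CPM in Media. The groups did not overlap for either gene, and CXCR4 was highest in siNEG. CXCL12 rose by a log2 fold change of 1.81 against siNEG (SE 0.08, adjusted p = 1.89e-12, quasi-likelihood test) and of 1.65 against Media. CXCR4 fell by 1.99 on the log2 scale against siNEG (SE 0.05, adjusted p = 7.85e-15, quasi-likelihood test) and by 1.74 against Media, and it was the only tested member called lower in siEF against siNEG.

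**Figure D3:**
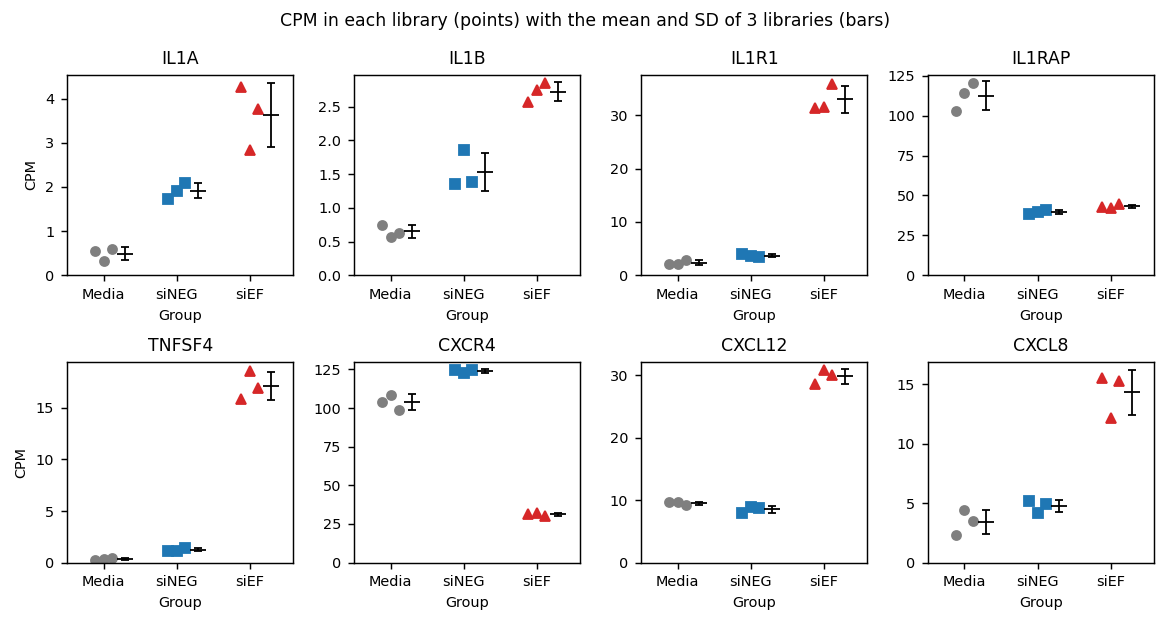
CPM of 8 members (panels) in each library, with groups on the horizontal axis, each point a library and the bars the mean and SD of 3 libraries. IL1A, IL1B and TNFSF4 are lowest in Media and highest in siEF, IL1RAP is high in Media alone, and CXCR4 is low in siEF alone while CXCL12 is high there.

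Of the CC chemokines, CCL2, which attracts monocytes, was the member with more than a few reads. It was at 4.30, 4.46 and 4.90 CPM in siEF, 1.20, 0.766 and 0.705 CPM in siNEG and 1.27, 1.14 and 0.943 CPM in Media. The siEF libraries stood apart and the controls overlapped. CCL2 rose by a log2 fold change of 2.35 against siNEG (SE 0.24, adjusted p = 1.26e-07, quasi-likelihood test) and of 2.02 against Media. CCL20, which attracts cells that carry CCR6, had 2, 4 and 10 counts in siEF, 0, 2 and 0 in siNEG and 5, 0 and 0 in Media. It was not tested, and its siEF and Media libraries overlapped.

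In the tumor necrosis factor family and its adaptors, TNFSF4 and BIRC3 rose against both controls, and TRAF1 had most of its counts in siEF. TNFSF4 encodes OX40L, the ligand of a costimulatory receptor on T cells. It was at 15.9, 18.6 and 16.9 CPM in siEF, 1.14, 1.15 and 1.41 CPM in siNEG and 0.261, 0.317 and 0.419 CPM in Media. The 3 groups were separate, with Media lowest. TNFSF4 rose by a log2 fold change of 3.79 in siEF against siNEG (SE 0.14, adjusted p = 5.68e-13, quasi-likelihood test), 5.67 in siEF against Media and 1.88 in siNEG against Media (adjusted p = 4.46e-05). TRAF1, an adaptor that binds receptors of the family, had 111, 90 and 123 counts in siEF, 11, 7 and 8 in siNEG and 3, 0 and 0 in Media. Its CPM values did not overlap between any of the groups, and it passed the filter on low counts only through its siEF libraries. Against siNEG, the log2 fold change of TRAF1 was 3.95 (SE 0.36, adjusted p = 4.38e-08, quasi-likelihood test), and against Media TRAF1 was at least 42.4-fold higher in siEF. It was at least 2.72-fold higher in siNEG than in Media, against a floor of 3 counts per library, with an adjusted p of 0.0104. Without Media replicate 1, which holds the 3 counts, that adjusted p was 0.00158.

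BIRC3, a ubiquitin ligase of the receptor complex that is also called cIAP2, was at 2.06, 2.35 and 2.02 CPM in siEF, 0.979, 0.707 and 0.641 CPM in siNEG and 0.522, 0.412 and 0.489 CPM in Media. Its siEF libraries were above all others. BIRC3 rose by a log2 fold change of 1.46 against siNEG (SE 0.28, adjusted p = 0.000163, quasi-likelihood test), a call that glmTreat did not make (adjusted p = 0.0725), and of 2.16 against Media. TNFRSF1A, the main receptor for tumor necrosis factor, was at 105 ± 3.70 CPM in siEF, 70.8 ± 2.30 CPM in siNEG and 75.0 ± 3.72 CPM in Media (SD, n = 3 each). Its log2 fold change of 0.57 against siNEG was under the cut-off (adjusted p = 3.75e-08, quasi-likelihood test). The ligand TNF itself had 6, 5 and 12 counts in siEF, 0 counts in every siNEG library and 0, 2 and 0 counts in Media. TNF was at least 3.13-fold higher in siEF than in siNEG on this floor, and it did not pass the filter on low counts.

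Among the effectors, ICAM1 and CSF1 rose. ICAM1, the adhesion molecule to which leukocyte integrins bind, was at 10.4, 8.28 and 11.4 CPM in siEF, 0.411, 0.766 and 0.994 CPM in siNEG and 0.555, 0.761 and 0.698 CPM in Media. The siEF libraries were far above the controls, which overlapped. ICAM1 rose by a log2 fold change of 3.79 against siNEG (SE 0.24, adjusted p = 3.24e-10, quasi-likelihood test) and of 3.90 against Media. CSF1, the growth factor of macrophages, was at 11.1, 10.6 and 9.87 CPM in siEF, 3.54, 3.86 and 3.33 CPM in siNEG and 2.68, 3.17 and 2.20 CPM in Media. No group overlapped another. CSF1 rose by a log2 fold change of 1.55 against siNEG (SE 0.14, adjusted p = 2.43e-08, quasi-likelihood test) and of 1.97 against Media. CSF1R, its receptor and 1 of the 6 leukocyte markers above, was at 0.743 CPM in siEF, 0.184 CPM in siNEG and 0.208 CPM in Media, a called log2 fold change of 1.95 against siNEG. It had 15 to 21 counts in siEF, 1 to 9 in siNEG and 5 to 7 in Media. CSF1R passed the filter on low counts only through its siEF libraries, so the call gives no support for a direction.

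VCAM1, another adhesion molecule, and PTGS2, the inducible cyclooxygenase COX-2, had counts in siEF libraries alone. VCAM1 had 1, 8 and 2 counts there and PTGS2 had 9, 2 and 10, while both had 0 counts in all siNEG and Media libraries. Against 3 counts per siNEG library, PTGS2 was at least 2.74-fold higher in siEF on the mean of its libraries. Its siEF replicate 2, with 2 counts or 0.098 CPM, lay barely above that floor. No bound is given for VCAM1, because 8 of its 11 reads came from siEF replicate 2 and the other siEF libraries, at 0.0361 and 0.0686 CPM, were below the floor of 0.0931 CPM. Neither gene passed the filter on low counts. Without the filter, the quasi-likelihood test called TNF and PTGS2 higher against siNEG, as did DESeq2, and did not call VCAM1. With so few counts, nearly all of them in siEF, these calls give no support for a direction.

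Divided by the length of merged exons, levels can be compared between members. In siNEG, the highest level was that of CXCR4, at 42.7 ± 0.423 CPM per kb, followed by TNFRSF1A at 16.8 ± 0.547 and RELA at 12.2 ± 0.134 (SD, n = 3 each). In siEF, TNFRSF1A came first at 25.1 ± 0.885 CPM per kb. RELA and IL6ST followed at 14.9 ± 0.390 and 14.6 ± 0.588 CPM per kb, which did not differ beyond their spread, and neither did CXCR4 at 10.8 ± 0.392 and LIFR at 10.5 ± 0.494 (SD, n = 3 each). NFKBIA rose to 9.36 CPM per kb and was then above OSMR at 8.18 CPM per kb, while in siNEG NFKBIA, at 3.27 CPM per kb, was below OSMR at 11.4 CPM per kb. In siEF, IL1R1 lay above IL1RAP, at 4.63 ± 0.360 and 3.86 ± 0.091 CPM per kb (SD, n = 3 each). In siNEG it lay far below IL1RAP, at 0.517 and 3.55 CPM per kb. Exon length is that of all annotated exons together, so a gene with many unused exons is set too low.

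**Figure D4:**
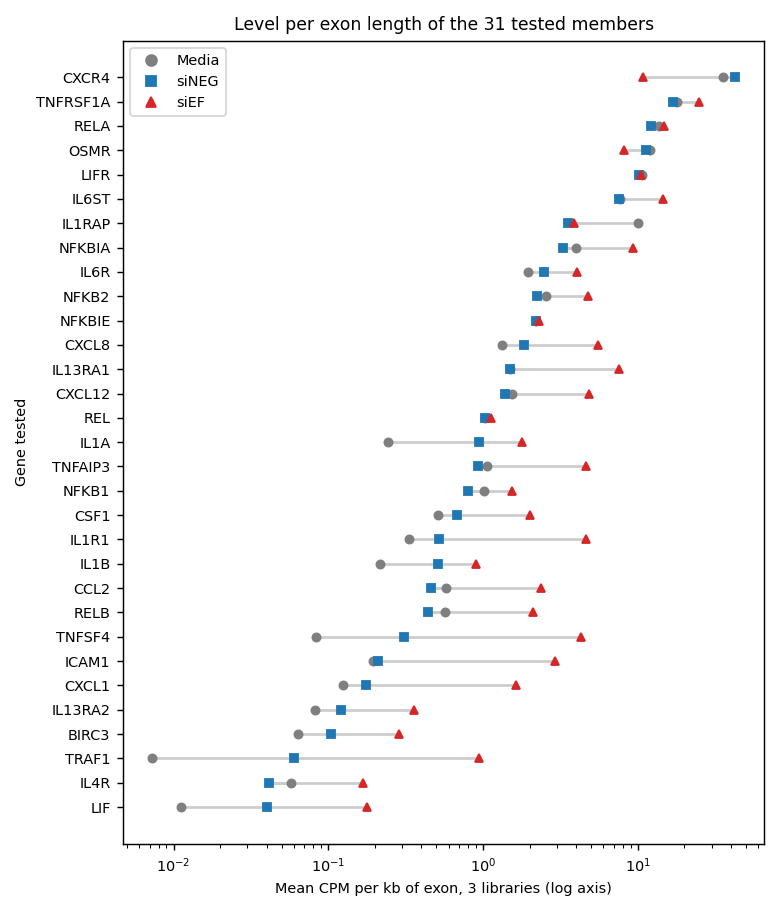
Mean CPM per kb of merged exons (log axis, 3 libraries) of the 31 tested members in Media (circles), siNEG (squares) and siEF (triangles), ordered by the siNEG level, with a line over the range of each gene. CXCR4 is the gene at the top, and its triangle at 10.8 lies left of its square at 42.7.

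The comparison of siNEG with Media shows what went with the nonspecific siRNA. The 4 called members were IL1A, IL1B and TNFSF4, which were higher, and IL1RAP, which was lower. Tested against the cut-off itself, none of the 3 higher members was called (glmTreat, adjusted p = 0.416 for IL1A, 1 for IL1B and 0.321 for TNFSF4). With an adjusted p under 0.01 alone, IL1R1 (log2 fold change 0.64), IL6R (0.34) and CXCR4 (0.25) were also higher, and NFKB1 (-0.35) was also lower. The NF-kB subunits and inhibitors gave log2 fold changes between -0.36 for RELB and 0.02 for REL, and none of them was called.

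Other genes of these pathways were described from lists that were drawn up by function. Of 42 further genes of the NF-kB signaling chain, 41 were found by symbol, all but LTBR, and 36 were tested. Against siNEG, 6 of the tested genes were higher and 4 lower in siEF, with a median log2 fold change of 0.23. These shares, 16.7% and 11.1%, were close to the 17.1% and 11.7% of all tested genes. IRAK2, a kinase after the interleukin-1 receptor, had a log2 fold change of 3.58, NFKBIZ, a nuclear cofactor that is itself an NF-kB target, 3.17, and TNFRSF21, death receptor 6, 2.31. The largest falls were those of CHUK, the kinase IKKα, by 1.49 on the log2 scale, NFKBIB, the inhibitor IκBβ, by 1.26, and TRAF3, an adaptor that restrains the noncanonical pathway, by 1.18. The exons of NFKBIZ overlap those of NXPE3 and the exons of NFKBIB those of SIRT2.

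Of 37 other interleukins, gp130 cytokines and their receptors, 21 were tested, and 11 were higher and 10 were not called, with a median log2 fold change of 1.41. The share called higher was 52.4%, beside 17.1% of all tested genes, but IL32, IL34 and IL2RG passed the filter on low counts only through their siEF libraries, so the count and the median describe the tested genes alone. IL34, which shares the receptor of CSF1, was at least 11.4-fold higher in siEF than in siNEG, where it had 0 counts in every library. IL32, a proinflammatory cytokine, had a log2 fold change of 4.39 and IL17RD, a membrane protein also known as SEF, 4.30. Of 38 other genes of chemokines, chemokine receptors and the chemokine-like factor family, 9 were tested and 3 were higher, beside 17.1% of all tested genes, with a median of 0.72. The 3 were CXCL14 (log2 fold change 2.94), CX3CL1 (1.46) and CMTM3 (1.48), the last a membrane protein of the chemokine-like factor family and not a chemokine. CXCL14 had 59504 to 86372 counts in the siEF libraries and 12074 to 12943 in the siNEG libraries, more than any member. In siNEG against Media, IL7R alone was called in these lists, with a log2 fold change of -1.20, and it was named after its value was seen.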

How the data were processed

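Libraries were grouped by their labels into siEF, siNEG and Media (30 h, 3 each). According to the methods, the authors mapped reads to hg38 with STAR 2.7.1a and quantified them with RSEM 1.3.1. The deposited values are expected counts per gene, neither scaled nor pooled, and the submitters' processing notes also name cutadapt 2.10, FastQC and DESeq2 1.32.0. The annotation release and the strand setting are not given in the sources used here. RSEM divides reads that fit several genes, which can shift values between near-identical genes such as CXCL1 and CXCL2.

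All 42 members were found by symbol, and all 9 columns of values were used. The members, the lists of other genes and the cut-offs were chosen with earlier results of these data known. The genes named outside the members were the called genes of each list that rose most (up to 3) and fell most (up to 3) against siNEG, except where stated. Gene positions and exon lengths were taken from GENCODE release 44, which holds 99.5% of the genes in the table. Promoters were taken from RefSeq on GRCh38.p14. A gene of the marker lists is not reported here.

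Expected counts were rounded, filtered with filterByExpr, scaled by TMM (factors 0.9705 to 1.0284) and compared in edgeR 4.0.16 (R 4.3.3) by its quasi-likelihood test, in 1 fit with a mean for each group. P-values were adjusted by Benjamini-Hochberg over the 16093 genes tested, and a call needed an adjusted p under 0.01 with a log2 fold change beyond 1. The standard error was obtained by dividing the log2 fold change by the square root of F. Floors of 3 counts per library cover counting error only. In simulated data for siEF against siNEG, 199 of 200 changed genes among 15130 were recovered, with 0 false calls. The changed genes were drawn from those well above the filter in siNEG, and all were changed by more than the cut-off. The check therefore does not cover members with few counts or changes near the cut-off. No pair of libraries within a group agreed within sampling noise (chi-square per degree of freedom 3.57 to 23.2). Alternatives were DESeq2 1.42.0, other scalings, filters and thresholds, the libraries compared alone, a replicate block and each library left out.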

Additional observations from a re-analysis of the deposited data

How the results depend on the processing

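Of 44 calls on members over the 3 comparisons, 34 were made in every alternative in which the member could be tested, 10 were lost in at least 1 and 0 changed sign. With at least 10 counts in every library, IL4R, IL13RA2, LIF, CXCL1, TNFSF4 and TRAF1 were not tested by construction, which left 12 members higher against siNEG, 14 against Media and 2 between siNEG and Media. Without a fold change cut-off, 24 members were higher and 2 lower against siNEG, 24 and 3 against Media, and 6 and 2 between siNEG and Media. Tested against the cut-off itself with glmTreat, 13 were higher against siNEG, 17 against Media and 0 between siNEG and Media, where glmTreat gave 3 higher members an unadjusted p under 0.05 and DESeq2 called 3 at the usual cut-offs. The calls lost were those of BIRC3, IL4R, LIF and NFKB2 against siNEG and of IL4R, IL6R and IL13RA2 against Media, and those of IL1A, IL1B and TNFSF4 between siNEG and Media. DESeq2 called 18 and 19 members higher in siEF, without LIF (adjusted p = 0.0113) against siNEG and without IL4R (0.0163) and IL13RA2 (0.0132) against Media, and gave no adjusted p for 6 tested members between siNEG and Media. Without the filter on low counts, TRAF1 was called between siNEG and Media, and on the 6 libraries of siNEG and Media alone IL1B was not (adjusted p = 0.0104). Upper quartile scaling moved the median of all genes to 0.1322 against siNEG and 0.1433 against Media and added IL1A, IL6ST and NFKB1 to the calls against siNEG (20) and IL6ST to those against Media (21). With each library left out, 15 to 17 members were higher against siNEG, 18 to 20 against Media and 2 to 4 between siNEG and Media. The replicate block gave the same counts of calls (17, 1, 20, 2, 3 and 1). Deviations of libraries with the same number correlated between -0.088 and 0.048, so the numbers were not taken as pairs. A limit of 0.5 CPM in place of 1 CPM gave 31 expressed members (31 in siEF, 26 in siNEG and 23 in Media), and 2 CPM gave 28 (28, 19 and 19).

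Changes of sign were seen in log2 fold changes that were not called, all within 0.2 of 0 except that of IL4R between siNEG and Media (-0.45). Upper quartile scaling gave 0.0852 for LIFR against Media and 0.0028 for NFKBIE between siNEG and Media, and at least 10 counts gave 0.0214 and 0.0014. With each library left out, LIFR ranged from -0.0375 to 0.0783 against siNEG, from -0.0961 to 0.0297 against Media and from -0.1326 to 0.0051 between siNEG and Media. NFKBIE ranged from -0.0571 to 0.1966, from -0.0153 to 0.0691 and from -0.1578 to 0.0955, and REL from -0.0017 to 0.2174, from -0.0168 to 0.278 and from -0.1236 to 0.1702, in the same order. Between siNEG and Media, ICAM1 ranged from -0.1796 to 0.3953, IL13RA1 from -0.0568 to 0.1261, IL4R from -0.9376 to 0.0615 and IL6ST from -0.1201 to 0.0355. The cause was not tested. LIF, IL4R and IL13RA2, whose calls were lost without single libraries, had at most 35 counts in any library.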

Other observations

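The receptors of the interleukin-6 and interleukin-4 types signal through JAK kinases and STAT factors, and the genes of that chain were described from a list of 23, of which 22 were tested. Against siNEG, 6 of them were higher in siEF, 1 was lower and 15 were not called (edgeR's quasi-likelihood test with Benjamini-Hochberg adjustment), with a median log2 fold change of 0.37. The shares called were 27.3% higher and 4.55% lower, beside 17.1% and 11.7% of all tested genes, and PTPN6 passed the filter on low counts only through its siEF libraries. SOCS1, a feedback inhibitor of JAK kinases, had between 144 and 259 counts in siEF and between 7 and 14 in siNEG, which is 4.54 on the log2 scale (SE 0.29, adjusted p = 4.47e-10, same test). STAT5A rose by 3.93 on the log2 scale (SE 0.35) and JAK3, the kinase that pairs with the shared receptor chain IL2RG, by 2.93 (SE 0.30), although exons of STAT5A overlap those of its neighbor STAT5B. IL2RG itself was at 2.47 CPM in siEF, 0.131 CPM in siNEG and 0.282 CPM in Media. SOCS3, the feedback inhibitor that binds gp130, was at 14.8 CPM in siEF, 5.02 CPM in siNEG and 4.78 CPM in Media, a log2 difference of 1.56 against siNEG (SE 0.11, adjusted p = 8.71e-10, same test). It was named after its value was seen, as were IL2RG and the genes in the next sentence. The remaining called genes were PTPN6, with 2.08, STAT2, with 1.27, and PTPN11, a phosphatase, which fell by 1.09 on the log2 scale. JAK1, the kinase used by both receptor types, was at 335 CPM in siEF, 585 CPM in siNEG and 540 CPM in Media. Its log2 fold change of -0.80 against siNEG was not called, and JAK1 was also named after its value was seen.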
